A study of Mus musculus with 31 samples.

Results

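Fibroblast growth factors (FGFs), their receptors and the Sprouty and Spred feedback genes were examined for accessible chromatin in mouse NIH-3T3 fibroblasts. The members were all protein-coding mouse genes whose symbol is Fgf followed by a number, Fgfr1 to Fgfr4, Fgfrl1, Spry1 to Spry4 or Spred1 to Spred3. In all, 34 symbols fitted this rule, and 33 of them lie on the 21 chromosomes kept in the peak list, out of 21938 protein-coding genes there. They comprise 22 ligands, 5 receptors and 6 feedback genes. Spry3 is annotated on a scaffold outside those chromosomes and has no value here.

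The data are a list of 63456 ATAC-seq peaks from the parental NIH-3T3 line, a line of mouse embryonic fibroblasts without any transgene. In ATAC-seq the transposase Tn5 cuts DNA that is free of nucleosomes, so that sequenced fragments pile up where chromatin is accessible. The list comes from 50000 cells treated with 0.5 µM Tn5, and the labels of this sample name no doxycycline, although the methods describe doxycycline for NIH-3T3 cells before ATAC-seq. The study made it to determine which regions of the NIH-3T3 genome were accessible. The other 30 of its 31 samples were not analysed here. They overexpressed 1 of 13 transcription factors (TFs) or held the doxycycline-responsive activator rtTA3G alone, as the control for overexpression. With 1 library there is no replicate error, no group was compared with another group of samples and no p-value between genes is given. Intervals below are 95% exact intervals (Poisson for fragments, Clopper-Pearson for shares) and cover counting error only. The lowest summit in the list was covered by 10 fragments and the median summit by 29, against about 2.81 expected from the genome background, so a gene without a listed peak is one where no peak was called at this depth.

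FGFs are signalling proteins that bind receptor tyrosine kinases at the cell surface, usually together with heparan sulphate or a Klotho coreceptor. Bound receptors activate the Ras-ERK kinase chain through adaptor proteins, and ERK in turn induces Sprouty and Spred proteins, which restrain the same chain. Fibroblasts are known as cells that respond to FGFs and that supply some of them to neighbouring tissues.

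Promoter peaks were listed for all feedback genes and for a minority of the ligand genes, with the receptor genes in between. A peak counts here as a promoter peak when part of it falls at most 1 kb from an annotated transcript start of the gene. Such a peak was present at 6 of 22 ligand genes (27.3%), 3 of 5 receptor genes (60.0%) and all 6 feedback genes (100%), against 53.7% of the 21905 other protein-coding genes. The ligands thus lay below this background and the feedback genes above it, while 3 of 5 is near it. Shares among genes of like CpG content are given further below. The place of the receptors depended on which starts were counted: at the 5′ end of the gene record alone, 1 of 5 receptors (20%) and 5 of 22 ligands (22.7%) had a peak, against all 6 feedback genes and 48.9% of the other genes. A peak over the start itself was found at 2 ligands (9.09%), 3 receptors and 4 feedback genes, against 48.7% of the other genes. All 33 members together had promoter peaks in 15 cases (45.5%), against 53.7% of the other genes, and this total mixes classes with different shares. The annotation gives the receptor genes a median of 14 different transcript starts, the ligands 2, the feedback genes 2.5 and the other genes 3, and the part of this in the counts was not tested. Without the intracellular Fgf11 to Fgf14, which are not secreted, 6 of 18 ligands (33.3%) had a promoter peak.

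**Figure D1:**
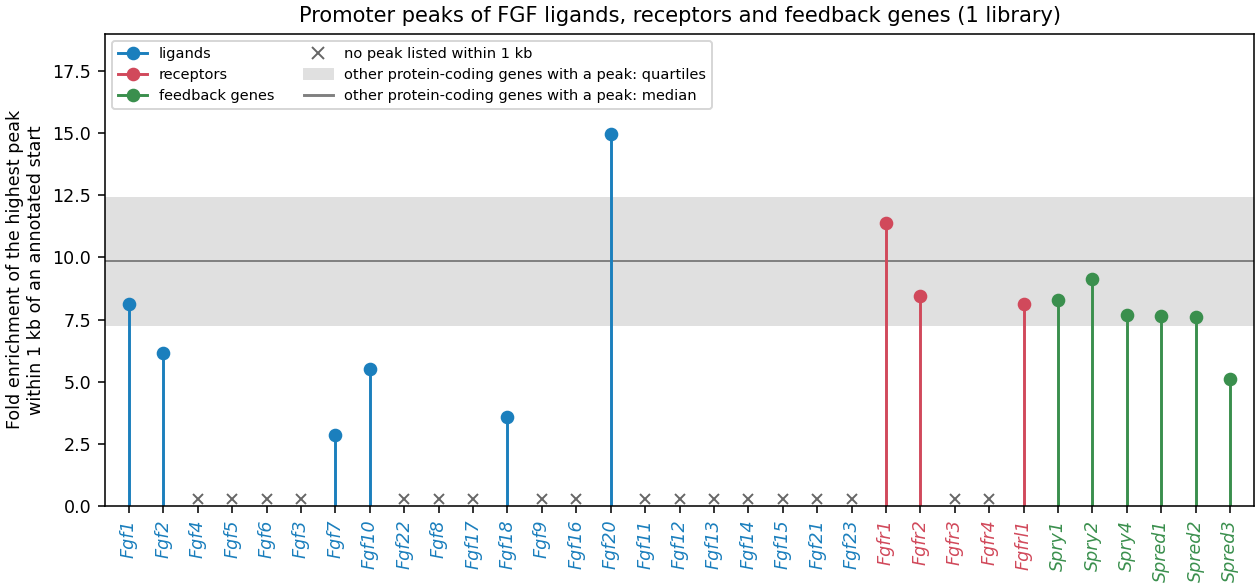
Fold enrichment of the highest peak within 1 kb of an annotated start for each of the 33 members (points with stems, coloured by class), with crosses for the 18 members without such a peak; the grey band and line give the quartiles (7.27 to 12.4) and the median (9.86) of the 11773 other protein-coding genes with a promoter peak. All 6 feedback genes carry a peak, 16 of 22 ligands carry a cross, and only Fgf20 and Fgfr1 rise above the grey line.

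By fold enrichment, the promoter peaks of most members were lower than the median of those of other genes. Height is given as fold enrichment, the fragment pileup at the summit over the locally expected pileup with 1 added to each. The highest promoter peak had a median fold enrichment of 5.83 in the 6 ligands, 8.46 in the 3 receptors and 7.66 in the 6 feedback genes, against 9.86 in the other genes. In 13 of the 15 members the value was below that median. The summits were covered by a median of 26.5 fragments in ligands, 77 in receptors and 55 in feedback genes, against 64 in the other genes, so the receptors exceeded the other genes in fragments but not in fold enrichment. The highest ligand peaks were also narrow, with a median width of 360.5 bp (160 to 1274), against 751 bp (586 to 1018) in receptors and 925 bp (666 to 1208) in feedback genes.

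Among the ligands, Fgf2 (basic FGF) had the only peak over a start that no other protein-coding gene shares. It had a fold enrichment of 6.14 with 30 fragments (95% interval 20.2 to 42.8) and was 922 bp wide, and the antisense gene Fgf2os starts within 1 kb of it. Fgf20, a factor known from inner ear and kidney development, had the highest promoter peak of all members, with a fold enrichment of 15.0 and 90 fragments (72.4 to 111). That peak is 1274 bp wide and also lies at the start of Micu3, a mitochondrial calcium uptake gene on the opposite strand, so the signal cannot be assigned to Fgf20.

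The other 4 ligands with promoter peaks had them beside a start, not over it. Fgf1 (acidic FGF) had a peak of 8.14-fold enrichment and 30 fragments, the edge of which lay 981 bp upstream of a start and thus just inside the limit of 1 kb. Fgf10, a mesenchymal signal for limb and lung buds, had peaks of 5.52-fold (20 fragments) and 3.94-fold enrichment (14 fragments) to either side of an internal start, at distances of 273 and 407 bp, where the antisense gene Gm16263 also starts. Fgf18, which acts on cartilage and bone, had a 3.57-fold peak with 22 fragments 731 bp upstream. Fgf7, the keratinocyte growth factor that fibroblasts supply to epithelia, had a peak of only 2.84-fold enrichment with 23 fragments, 21 bp downstream of its start. Just 0.39% of the other genes with a promoter peak had a lower fold enrichment. The locally expected pileup there was 7.44 fragments, against 2.81 at the Fgf1 and Fgf10 peaks and 5.45 at the Fgf18 peak. Fgf10 and Fgf18 thus had fewer fragments than Fgf7 at a higher fold enrichment. The nearest members outside the limit were Fgfr4 at 3285 bp and Fgf17 at 3373 bp.

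No promoter peak was listed for 16 ligands, which cover the FGF4 subfamily, the hormones and the intracellular FGFs as a whole. For the 3 members of the FGF4 subfamily the nearest peak lay 53357 bp (Fgf4, a growth signal of the early embryo), 74809 bp (Fgf5, a regulator of the hair cycle) and 32397 bp (Fgf6, known from muscle) away. Fgf3 and Fgf22, of the same subfamily as Fgf7 and Fgf10, had their nearest peaks at 60127 and 8132 bp. Fgf8, a patterning signal of limb and brain, was 6217 bp from a peak, which lay at the Npm3 start, and its relative Fgf17 was 3373 bp from one. Fgf9 and Fgf16, relatives of Fgf20, were 70965 and 45755 bp from a peak. The 3 hormone-like FGFs act at a distance through Klotho proteins, and their nearest peaks lay 18179 bp (Fgf15, a bile acid signal of the gut), 6018 bp (Fgf21, a liver hormone of fasting) and 13790 bp (Fgf23, a bone hormone of phosphate balance) away. The intracellular FGFs bind sodium channels in excitable cells, and their nearest peaks lay 5981 bp (Fgf11), 28242 bp (Fgf12), 71707 bp (Fgf14) and 835654 bp (Fgf13) away.

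**Figure D2:**
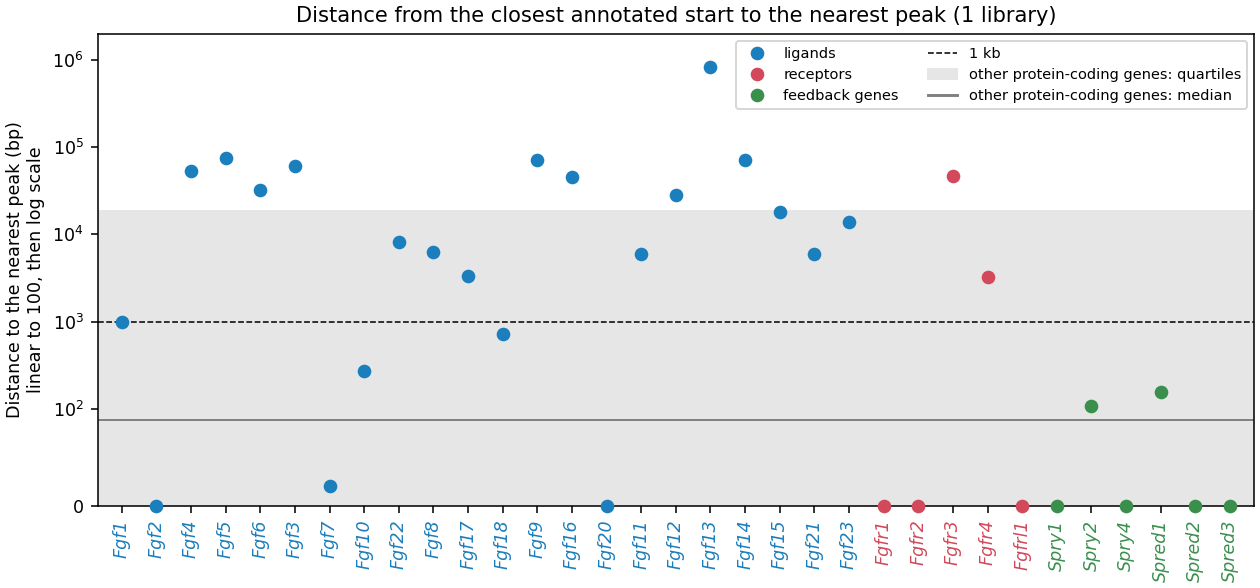
Distance in bp (linear to 100, then a log scale) from each member's closest annotated start to the nearest peak, coloured by class, with 0 for a peak over a start, the 1 kb limit as a dashed line, and the median (89 bp) and quartiles of the other protein-coding genes as a grey line and band. Feedback genes lie at 158 bp or less, whereas ligands range from 0 to 835654 bp.

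The distances of the classes differed in the same direction as the counts. The median distance to the nearest peak was 10961 bp for ligands (quartiles 1579 and 51456.5), and 0 for receptors and for feedback genes, against 89 bp for the other genes. Of the 16 ligands without a promoter peak, 6 were over 50 kb from any peak, and for 9 the nearest peak lay at a start of another gene. The strongest of these was a 15.7-fold peak at the Chrnb1 start, which was the nearest to Fgf11. Fgf4 and Fgf15 lie in the same cluster on chromosome 7 with Fgf3, and share as their nearest peak the 9.22-fold peak at the LTO1 start. These ligands are thus not independent of each other.

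Of the receptors, Fgfr1, Fgfr2 and Fgfrl1 had peaks over a start and Fgfr3 and Fgfr4 had none. Fgfr1, which encodes a receptor kinase of mesenchymal cells, had the highest receptor peak, of 11.4-fold enrichment with 112 fragments (92.2 to 135) and 1018 bp in width. Its summit lay 2 bp downstream of an internal annotated start on chromosome 8, not at the 5′ end of the gene record. Fgfrl1, a receptor without a kinase domain, had an 8.12-fold peak with 77 fragments (60.8 to 96.2) and a second of 4.22-fold with 40 fragments. Fgfr3, known for restraining bone growth, had no peak within 25 kb and was 46950 bp from the nearest peak. Fgfr4, which mediates bile acid control in liver, had none at its starts but 4 in its surroundings, among them a 14.2-fold peak with 75 fragments (59.0 to 94.0) 34312 bp downstream of a start.

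Fgfr2, the receptor kinase whose splice forms differ between epithelia and mesenchyme, had 3 peaks within 1 kb of the starts at its usual promoter. The highest was 8.46-fold enriched with 53 fragments (39.7 to 69.3) and lay over a start, with its summit 68 bp upstream. The others were 5.81-fold (37 fragments) and 5.63-fold (34 fragments). The Fgfr2 record in the annotation is 2960900 bp long because 1 of its 27 transcripts starts at the promoter of Ctbp2, a transcriptional corepressor gene. At that far start 3 more peaks of 8.04-, 4.69- and 2.29-fold enrichment were counted by the rule, all within 1 kb of a Ctbp2 start. Without this transcript the gene spans 103813 bp, and counts of surrounding peaks are given below for both spans.

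All 6 feedback genes had a promoter peak, with fold enrichments from 5.12 to 9.13. Among the Sprouty genes, whose proteins block ERK activation, Spry2 had a 9.13-fold peak with 86 fragments (68.8 to 106), Spry1 peaks of 8.28-fold (38 fragments) and 5.76-fold (27 fragments), and Spry4 a 7.69-fold peak with 45 fragments (32.8 to 60.2). The Spred proteins recruit neurofibromin to inactivate Ras. Spred1 had a 7.63-fold peak with 65 fragments (50.2 to 82.8), and Spred2 peaks of 7.59-fold with 114 fragments (94.0 to 137) and 4.36-fold with 55 fragments. Spred3 had the lowest value, 5.12-fold with 35 fragments (24.4 to 48.7), and this peak also lies at the start of Ggn, a germ cell gene on the opposite strand. The Spry2 and Spred1 peaks ended 107 and 158 bp upstream of the annotated start, while those of the other 4 covered one.

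**Figure D3:**
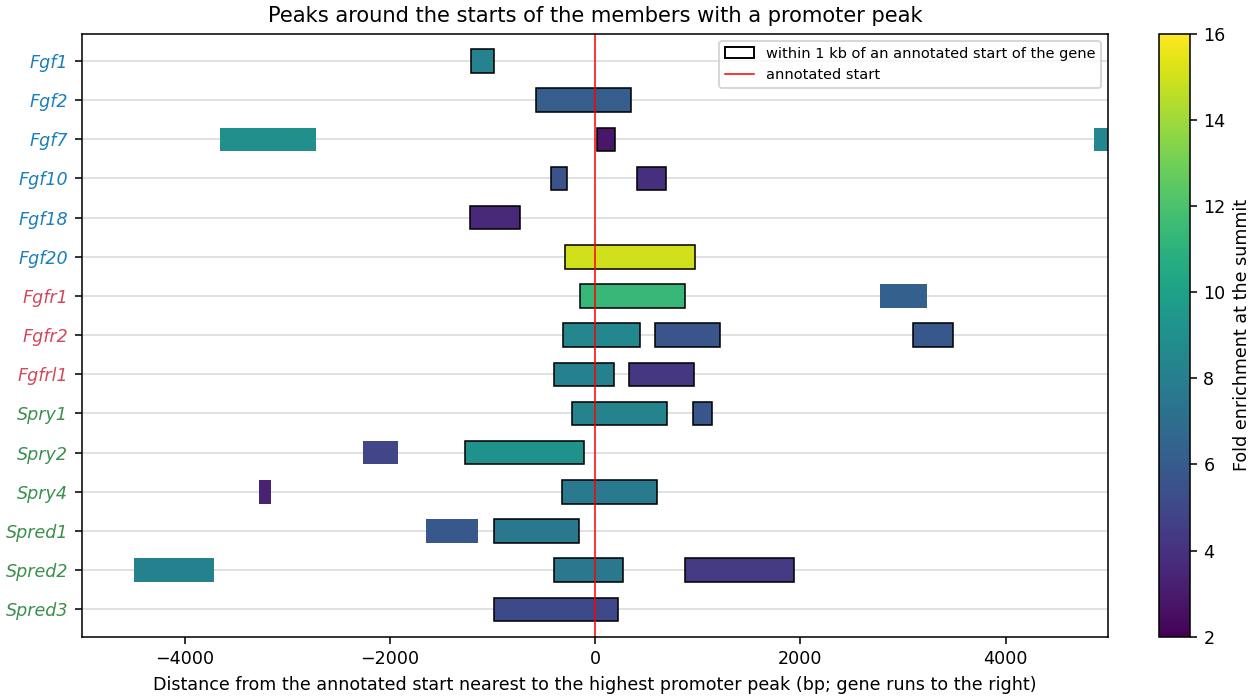
Peaks as boxes, to scale, around the annotated start nearest to the highest promoter peak of each of the 15 members with one; the gene runs to the right of the red line, colour gives fold enrichment, and black outlines mark peaks within 1 kb of any annotated start of that gene. Receptor and feedback genes have boxes over or just upstream of the line, whereas the Fgf1 and Fgf18 boxes lie apart from it and the outlined Fgf7 and Fgf10 boxes are small. A wider Fgf7 box without an outline, further upstream, is a distal peak.

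The sequences at 4 of these promoter summits are given to show the letters under the signal, as windows of the summit base and 50 bp to either side, read 5′ to 3′ in the direction of the gene from the GRCm38.p6 reference of RefSeq (mm10). Capitals mark GC boxes (GGGCGG or CCGCCC, a sequence bound by Sp1) and, in Fgf18, also an AP-1 site (TGACTCA or TGAGTCA, bound by Fos and Jun proteins).
Fgfr2 highest promoter peak, chr7:130266281-130266381, minus strand: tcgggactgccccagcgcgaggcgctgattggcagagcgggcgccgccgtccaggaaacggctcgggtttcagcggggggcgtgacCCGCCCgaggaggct
Spry1 second promoter peak, chr3:37640903-37641003, plus strand: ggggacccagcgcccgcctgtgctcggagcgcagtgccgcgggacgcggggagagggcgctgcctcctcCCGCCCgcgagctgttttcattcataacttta
Spred2 second promoter peak, chr11:19925506-19925606, plus strand: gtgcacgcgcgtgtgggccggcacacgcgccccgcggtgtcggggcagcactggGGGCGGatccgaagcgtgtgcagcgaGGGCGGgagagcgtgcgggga
Fgf18 promoter peak, chr11:33148270-33148370, minus strand: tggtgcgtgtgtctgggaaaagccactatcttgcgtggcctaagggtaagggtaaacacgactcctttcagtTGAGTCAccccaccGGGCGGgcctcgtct

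For each of 6 short sequences searched, the share among all promoter peaks lay within the wide interval of the members' share. The members' 24 promoter windows include those at the far Fgfr2 start. Of the 24 peaks, 5 lie within 1 kb of a start of another protein-coding gene. All promoter peaks are taken here as the 16264 peaks within 1 kb of a start of any annotated gene, whether protein-coding or not. A GC box was found in 7 of 24 promoter windows of the members (29.2%, 95% interval 12.6 to 51.1), against 30.5% of all 16264 promoter peaks. The AP-1 sequence was found in 2 of 24 (8.33%, 1.03 to 27.0), at Fgf18 and in the 5.81-fold peak of Fgfr2, against 8.15% of all. The ETS sequence (CCGGAA or TTCCGG), bound by effectors of ERK signalling, was in 1 of 24 windows, at Fgfrl1, against 11.3% of all. The RUNX sequence (TGTGGT or ACCACA) was in 1 of 24, against 6.39% of all. The CRE (TGACGTCA) and TEAD (GGAATG or CATTCC) sequences had no match in these windows, against 1.36% and 5.10% of all. Both strands were searched, and a match is a description of the letters, not of binding.

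Split by CpG content, the ligands with CpG-rich starts lay further below the other genes than the ligands as a whole. A gene was called CpG-rich when any annotated start had at least 55% GC and an observed over expected CpG ratio of at least 0.6 in the 500 bp around it. By this measure 13 of 22 ligands, all 5 receptors and all 6 feedback genes were CpG-rich, as were 54.2% of the other genes. Of the other CpG-rich genes 80.6% had a promoter peak, whereas only 3 of the 13 CpG-rich ligands did (23.1%), namely Fgf2, Fgf18 and Fgf20. The 10 without one were Fgf3, Fgf4, Fgf5, Fgf8, Fgf9, Fgf12, Fgf13, Fgf15, Fgf16 and Fgf22. Fgfr3 and Fgfr4 were likewise CpG-rich without a peak, which makes 12 such members of 24. Beside the same 80.6%, the receptors had 3 of 5 (60.0%) and the feedback genes 6 of 6 (100%). In classes this small 1 gene moves the share widely, so neither is read as a difference from the other CpG-rich genes. Of the 9 ligands without a CpG-rich start 3 had a peak (33.3%), namely Fgf1, Fgf7 and Fgf10, against 21.9% of the other genes of that kind.

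**Figure D4:**
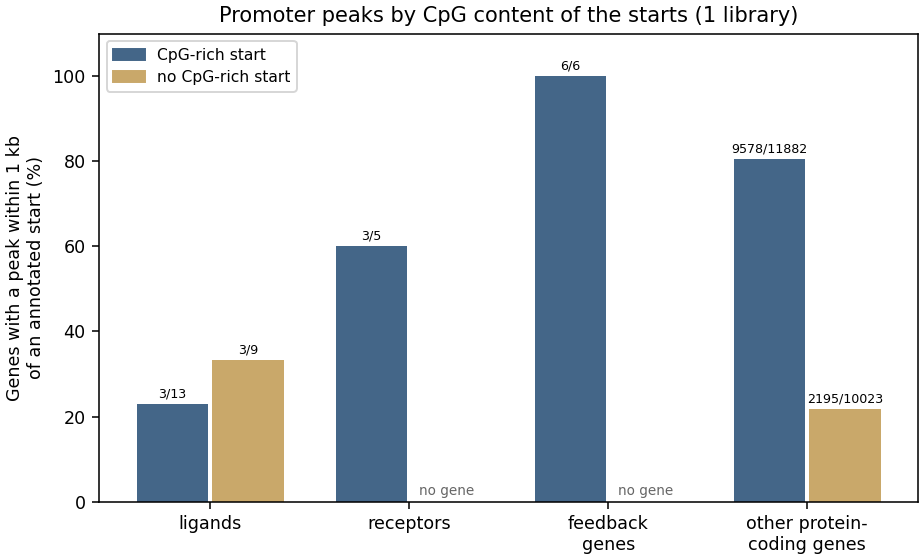
Percentage of genes with a peak within 1 kb of an annotated start, for genes with and without a CpG-rich start, in each class and in the other protein-coding genes; the numbers above the bars are genes with a peak over genes in the class, and receptors and feedback genes have no gene without a CpG-rich start. The bar of CpG-rich ligands (3 of 13) stands at 23.1%, against 80.6% for the other CpG-rich genes.

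The stretches of 200 bases upstream of the RefSeq starts of Spry2 and Fgf9 are given as examples, with each CpG in capitals. They were chosen after their values were seen, as a member with a promoter peak and a ligand called CpG-rich without one. Fgf9 was called CpG-rich by another of its 4 annotated starts than the 5′ end of its record. At that end it had 52.2% GC and a CpG ratio of 0.499, below both limits. The 200-base stretches themselves were not classed by these limits. The Spry2 stretch holds 13 CpGs and lies partly within the 9.13-fold peak, and the Fgf9 stretch holds 11 and was 70965 bp from the nearest peak as measured from the closest annotated start. The stretch of Spred1, a member with a promoter peak, was also read and holds 30 CpGs, but is not shown.
Spry2 upstream stretch, chr14:105896820-105897019, minus strand: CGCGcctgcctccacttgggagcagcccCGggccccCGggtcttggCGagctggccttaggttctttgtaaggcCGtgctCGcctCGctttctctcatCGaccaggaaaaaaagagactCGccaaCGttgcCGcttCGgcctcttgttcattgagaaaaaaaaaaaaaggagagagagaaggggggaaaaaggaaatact
Fgf9 upstream stretch, chr14:58072486-58072685, plus strand: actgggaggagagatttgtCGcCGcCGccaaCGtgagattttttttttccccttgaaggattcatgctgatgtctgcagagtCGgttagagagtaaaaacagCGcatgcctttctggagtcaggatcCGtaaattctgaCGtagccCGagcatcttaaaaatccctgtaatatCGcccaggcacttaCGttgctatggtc

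The surroundings of the genes, taken as the gene record and 25 kb to either side, differed in the same way. Counted were peaks at the gene's own starts and distal peaks, which lie over 1 kb from any annotated start. Their median number was 1 for ligands, 5 for receptors and 2.5 for feedback genes, against 2 for the other genes. None was found around 11 of 22 ligands (50.0%), 1 receptor (Fgfr3) and no feedback gene, against 23.2% of the other genes. For 7 ligands (Fgf3, Fgf4, Fgf5, Fgf6, Fgf9, Fgf13 and Fgf16) no peak of any kind lay in this window, although that of Fgf13 is 555.927 kb long. Per 100 kb of window, the median was 0.133 peaks in ligands, 4.46 in receptors and 4.53 in feedback genes, against 2.73 (quartiles 0.762 and 4.97) in the other genes. With the shorter Fgfr2 span the receptors' median was 5.20.

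Within each class the surroundings varied widely. Among ligands, Fgf7, Fgf2, Fgf18 and Fgf1 had 6.57, 6.26, 5.00 and 4.97 peaks per 100 kb, and Fgf10 had 8 peaks at 4.64 per 100 kb. Fgf12 and Fgf14, whose windows are 642.971 and 749.221 kb long, had 2 peaks each. Fgf17, Fgf21 and Fgf23 had 2 distal peaks each in spite of having none at their starts. Among receptors, Fgfrl1 had 9 peaks in 64.543 kb, or 13.9 per 100 kb, the highest density of the members. Fgfr1 had 5 and Fgfr4 had 4. Fgfr2 had 8 peaks in its short window of 153.813 kb, and 91 in the full record at 3.02 per 100 kb, with 30 further peaks there at starts of other genes. Among feedback genes, Spred2 had 12 peaks and Spred1 had 6, and each Sprouty gene had 2 or 3. Spred3 had 1.

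**Figure D5:**
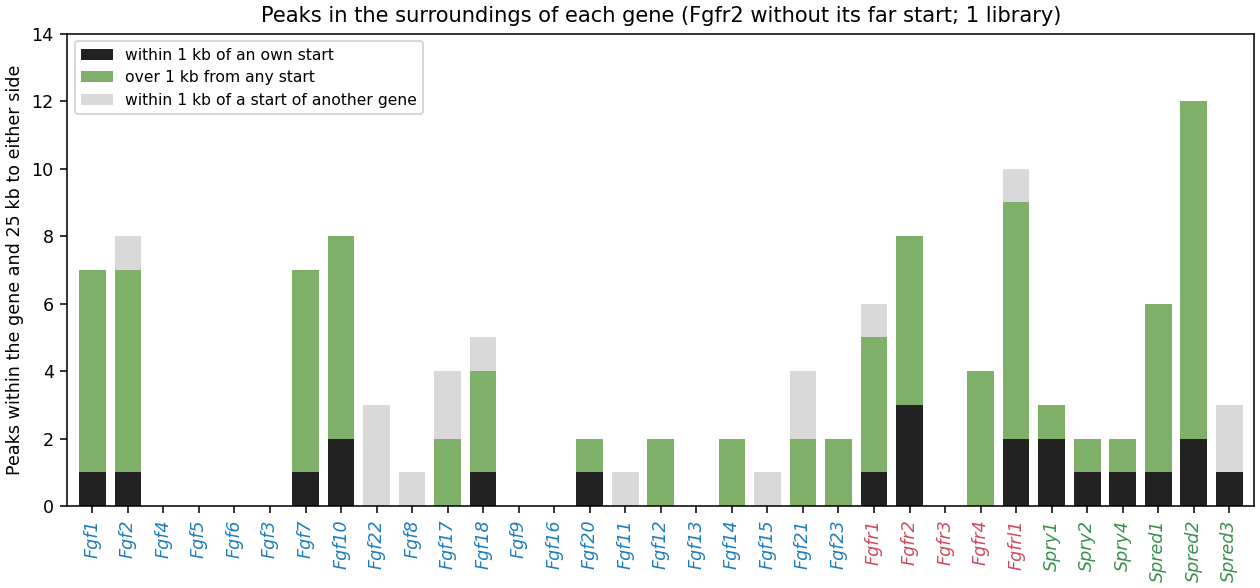
Number of peaks in the gene record and 25 kb to either side for each member, split into peaks within 1 kb of an own start (black), distal peaks (green) and peaks within 1 kb of a start of another gene (grey), with Fgfr2 shown for its span of 103813 bp. Spred2 has 12 peaks and Fgfrl1 10, whereas 7 ligands and Fgfr3 have none.

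Several distal peaks were higher than any promoter peak of the same gene. Around ligands the 5 highest were 2 intronic peaks of Fgf2, with 14.1-fold enrichment and 127 fragments (106 to 151) and 13.1-fold and 80 fragments (63.4 to 99.6), followed by a 10.9-fold peak near Fgf21, an 8.96-fold peak 2989 bp upstream of Fgf7 and an 8.67-fold intronic peak of Fgf14. The Fgf2 intron thus held a peak with more fragments than its promoter (127 against 30). The Fgf7 peak, with 63 fragments (48.4 to 80.6), likewise exceeded the 23 fragments at its start. Around receptors in the shorter Fgfr2 span, the 5 highest were the 14.2-fold peak near Fgfr4, a 9.98-fold intronic peak of Fgfr2, a 9.77-fold peak 9244 bp from a start of Fgfrl1, an 8.95-fold peak near Fgfr1 and a 7.09-fold peak near Fgfr4. The full Fgfr2 record adds 4 higher than that near Fgfr4, of 14.8- to 15.3-fold enrichment, each 399.202 kb or more from the nearest Fgfr2 start. Around feedback genes the 5 highest were a 14.8-fold intronic peak of Spred2 with 97 fragments (78.7 to 118), a 14.5-fold peak 14077 bp from a start of Spry1 with 68 fragments (52.8 to 86.2), a 12.8-fold peak near Spred1, an 8.07-fold peak 3855 bp upstream of Spred2 and a 7.88-fold peak of Spred1. The median fold enrichment of all 76 distal peaks, with the shorter Fgfr2 span, was 5.52, and that of all 47192 distal peaks in the list was 5.54.

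Summit windows of the same length from 6 distal peaks are given in the same way, since they are among the highest and hold short sequences of the 6 that were searched. Capitals mark AP-1 in Spred2 and Fgf2, RUNX in Spry1, AP-1 and then TEAD in Fgfr2, a GC box and then TEAD in Fgf7, and ETS and then AP-1 in Fgf14, where the last letters of AP-1 overlap a TEAD sequence.
Spred2 intronic peak, chr11:19979445-19979545, plus strand: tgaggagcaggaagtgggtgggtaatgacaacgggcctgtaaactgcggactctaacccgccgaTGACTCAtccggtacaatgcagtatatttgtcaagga
Spry1 downstream peak, chr3:37654107-37654207, plus strand: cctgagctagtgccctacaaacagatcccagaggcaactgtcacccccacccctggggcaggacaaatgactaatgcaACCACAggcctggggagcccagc
Fgf2 intronic peak, chr3:37361016-37361116, plus strand: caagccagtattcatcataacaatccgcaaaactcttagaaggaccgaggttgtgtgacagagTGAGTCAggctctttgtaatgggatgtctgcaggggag
Fgfr2 intronic peak, chr7:130188258-130188358, minus strand: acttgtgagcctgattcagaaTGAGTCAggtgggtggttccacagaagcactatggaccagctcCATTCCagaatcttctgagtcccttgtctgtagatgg
Fgf7 upstream peak, chr2:126031619-126031719, plus strand: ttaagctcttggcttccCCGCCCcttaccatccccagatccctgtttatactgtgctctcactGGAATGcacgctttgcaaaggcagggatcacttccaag
Fgf14 intronic peak, chr14:124078987-124079087, minus strand: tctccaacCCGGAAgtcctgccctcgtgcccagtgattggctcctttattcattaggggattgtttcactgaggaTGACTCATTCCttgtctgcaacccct

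The AP-1 sequence was present in 16 of the 76 distal windows (21.1%, 95% interval 12.5 to 31.9), against 26.4% of all distal peaks. These were 6 of 38 around ligands, 7 of 20 around receptors and 3 of 18 around feedback genes. With the full Fgfr2 record the count was 39 of 156. RUNX was in 11 of 76 (14.5%, against 13.2% of all), TEAD in 6 of 76 (7.89%, against 9.52%), ETS in 2 of 76 (2.63%, against 1.56%) and a GC box in 2 of 76 (2.63%, against 3.52%). CRE had no match in the 76 windows, and 0.206% of all distal windows held it. With the shorter span, which was chosen after seeing the data, the intervals of the members' shares held the share of all distal peaks for each of these sequences. With the full record RUNX was in 30 of 156 windows (19.2%, 13.4 to 26.3), an interval above the 13.2% of all distal peaks. For each of the other sequences the full-record interval held the share of all distal peaks. The windows added to the 76 all come from the Fgfr2 record stretched to the Ctbp2 promoter. Neighbouring peaks are not independent, and the intervals do not allow for that.

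Other genes of the pathway, from a list of 46, had a promoter peak in 36 cases (78.3%), with a median fold enrichment of 8.84, against 53.7% and 9.86 in the protein-coding genes outside the members. Of these 46 genes 36 were CpG-rich, and 29 of the 36 had a peak (80.6%), near the share of the other CpG-rich genes. All 9 adaptors, all 11 genes of the Ras-ERK chain, all 5 ERK phosphatases and all 3 ETS genes had one. Frs2, the docking protein of FGF receptors, had a 6.76-fold peak. Dusp6, an ERK phosphatase, had an 11.3-fold peak with 133 fragments, and Etv5, an ETS gene induced by FGF, an 11.9-fold peak. At the cell surface the picture was mixed. The Klotho coreceptor genes Kl and Klb had none, with the nearest peaks 19372 and 12371 bp away. Of 12 FGF-binding proteins and proteoglycans 5 had one, namely Fgfbp3 (11.2-fold), Sdc1 (7.66-fold), Sdc2 (17.2-fold), Sdc4 (7.60-fold) and Gpc1 (8.08-fold). Of the 4 FLRT and Sef genes, Flrt1 was the only one without a peak.

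The label of the line was checked with marker genes. Of 16 fibroblast markers 14 had a promoter peak, among them Fn1 (10.5-fold) and Col1a2 (7.79-fold), and Fap and Postn had none. That is 87.5%, against 53.7% of the protein-coding genes outside the members. Of 34 markers of other cell types 7 had one (20.6%). These were the epithelial genes Krt8 (3.25-fold), Krt19 (7.35-fold) and Grhl2 (5.40-fold), the blood gene Spi1 (3.22-fold) and the endothelial genes Pecam1 (8.40-fold), Cdh5 (12.8-fold) and Tek (3.58-fold). The endothelial genes were thus 3 of 5, and the Cdh5 value was above that of every fibroblast marker. The 14 neuronal, muscle and pluripotency markers had none. CpG-rich starts were found in 9 of the 16 fibroblast markers, and all 9 had a peak. Of the 34 other markers 10 were CpG-rich, and 1 of these had a peak.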

How the data were processed

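ATAC-seq was analysed for 1 library, the only sample with a file here. Per the labels and methods, the authors mapped read pairs to mm10, without duplicates, and used MACS2 for peak calling. The submitters' processing notes name STAR 2.5.3a, Picard, MACS2 2.1.1.20160309, SAMtools and deepTools. The authors deposited per peak a fold enrichment (a ratio), a −log10 p-value and −log10 q-value from a Poisson test, and a score derived from −log10 q. The methods give a range of reads per sample for all libraries, and the peak list itself holds no read total.

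Fragments at each summit were solved from the deposited fold enrichment and −log10 p by bisection, with a tolerance of 0.01, and 3 of 63456 peaks could not be solved. The procedure was tested on simulated data. Genes and starts came from GENCODE M21, and sequences from the RefSeq GRCm38.p6 genome and promoter table, where 25 members matched. Coordinates are counted from 1. Tools were matplotlib 3.10.9, SciPy 1.17.1, pandas 2.3.3 and NumPy 2.4.6 under Python 3.11.15.

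The members, gene lists, motifs and alternatives were chosen with earlier results of these data known. All members were named, together with the 5 highest distal peaks of each class, genes sharing a start with a member's peak and, in each pathway group, up to 6 genes on the smaller side. Frs2, Dusp6, Etv5, the genes nearest to ligands without a promoter peak, the far peaks of Fgfr2, the densities singled out and the marker genes were named after their values were seen. The summit sequences were those holding a motif first, by fold enrichment, outside exons, with up to 12 allowed. Alternatives were other peak thresholds, distances, windows, starts and CpG limits.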

Additional observations from a re-analysis of the deposited data

How the results depend on the processing

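Of 123 alternative values, 106 stayed within a factor of 1.5 of the reported one and 17 did not. The cause was not tested for these. The share of ligands with a peak fell to 9.09% when the peak had to cover the start. The share of receptors was 20% when only the 5′ end of the gene record was used, below the 22.7% of ligands at that setting, and 33.3% among receptors CpG-rich at that end. The median ligand peak relative to that of other genes was 0.591 by fold enrichment and 0.277 by −log10 q. Most of the others were medians of peaks per 100 kb. At a q of 1e-05 or below the receptors had 2.68. At a fold enrichment of at least 5, ligands had 0, receptors 2.68, feedback genes 2.92 and other genes 1.61. Within 10 kb, ligands had 0 and feedback genes 6.85, and within 50 kb ligands had 1.66. In the gene body alone, ligands had 0, receptors 2.97 and feedback genes 6.81, against 3.12 in other genes, so the receptors then lay below the other genes. Ligands had 1.81 with peaks at starts of other genes counted, and 0 without genes over 100 kb. In each of these settings for peaks per 100 kb, ligands had the lowest median of the 3 classes. The Fgfr2 span without the far start was added after seeing the data. Fgf20 and Spred3 lose their promoter peak if peaks at starts of other protein-coding genes are left out. No paired analysis was possible because the peak list holds a single library. Depth limits the list to summits of 10 fragments or more, and replicate error is unknown.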
